A study of Rattus norvegicus with 6 samples.

Results

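The 10 genes described here are markers of T cells and natural killer (NK) cells measured in rat liver: Cd2, Cd3d, Cd3e, Cd3g, Cd4, Cd8a, Lck, Nkg7, Gzmb and Klrd1. They were taken as a named list, and every probe whose accession is a transcript of one of them was used. This gave 14 probes for 10 of the 15284 genes that could be named on the array. Livers came from 3 male Sprague-Dawley rats dosed at 1000 mg/kg/day with BBMP, which is 2,2-bis(bromomethyl)-1,3-propanediol, a flame retardant that carries bromine. The other 3 were males of the same strain that received the corn oil vehicle. The series gives the time as 28 days and the treatment protocol as 9 weeks, and the rats were bought at 5 weeks of age. One 1-colour Agilent array was read per animal, on whole-liver RNA, so lymphocytes contributed together with hepatocytes and all other liver cells.

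T cells recognise antigen through a receptor that signals inside the cell by way of the CD3 chains, and the coreceptors CD4 and CD8 bring the kinase Lck to it. Cytotoxic T cells and NK cells kill target cells by releasing granules that hold granzymes and perforin, and NK cells balance activating and inhibitory receptors such as the CD94 heterodimers. The liver holds a resident population of both cell types in its sinusoids. In rats Cd4 is also present on macrophages, so it does not mark T cells alone.

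Values below are log2 of the background-subtracted signal minus the log2 of the same array's 75th percentile, so 0 is the 75th percentile of that array. Levels are compared only within a probe. Of the 61573 probes, 60.1% to 64.4% per array were well above background, as called by the scanner software. Precision is limited by having 3 arrays a group. All 12 hepatocyte markers, albumin among them, were well above background on all 6 arrays. Each treatment had a slide and scan of its own, so an effect of slide or scan and one of BBMP cannot be told apart anywhere below. The p-values measure the spread between these animals only.

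Promoter sequence was available for 8 of the 10 genes in RefSeq's GRCr8 table (not Cd4 and Klrd1). The sequences of 3 genes are shown because their signals, described below, peaked in different animals on the brightest probe of each gene. Cd3e, too dim to be tested, stands for the CD3 genes, and Gzmb and Nkg7 for the genes of cytotoxic granules. The other Gzmb probes peaked elsewhere, in corn oil 1, as Nkg7 did, and in BBMP 2. Each sequence is the 250 bases before the transcript start, 5′ to 3′ on the gene's own strand. Capitals mark 4 motifs searched on both strands: TGTGGT (the core bound by RUNX factors), AGGAAG (an ETS core), TGACGT (the core of the cyclic AMP response element) and TATAAA (the TATA box). No marked motif overlaps another. The Cd3e window lies at chr8:54211771-54212020 on the minus strand, Gzmb at chr15:34462470-34462719 on the minus strand and Nkg7 at chr1:102981247-102981496 on the plus strand.
Cd3e: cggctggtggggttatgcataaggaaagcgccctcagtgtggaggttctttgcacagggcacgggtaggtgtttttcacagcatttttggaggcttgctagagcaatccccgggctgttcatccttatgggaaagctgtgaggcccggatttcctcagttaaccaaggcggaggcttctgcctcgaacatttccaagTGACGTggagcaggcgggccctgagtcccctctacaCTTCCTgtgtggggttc
Gzmb: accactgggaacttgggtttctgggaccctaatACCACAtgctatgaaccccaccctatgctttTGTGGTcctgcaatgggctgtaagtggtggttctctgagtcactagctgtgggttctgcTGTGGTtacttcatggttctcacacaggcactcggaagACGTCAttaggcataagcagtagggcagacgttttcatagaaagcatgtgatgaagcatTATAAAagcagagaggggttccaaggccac
Nkg7: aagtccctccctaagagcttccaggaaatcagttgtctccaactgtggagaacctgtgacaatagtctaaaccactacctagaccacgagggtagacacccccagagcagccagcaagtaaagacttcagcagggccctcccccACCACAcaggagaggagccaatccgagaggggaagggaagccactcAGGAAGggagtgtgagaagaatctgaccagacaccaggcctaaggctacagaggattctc
The Gzmb window held 3 RUNX cores, a TGACGT core and a TATA box, the box beginning 30 bases before the start. The Cd3e window held a TGACGT core 53 bases and an ETS core 17 bases before the start. The Nkg7 window held a RUNX core 106 bases and an ETS core 60 bases before the start. Among the 9 windows of the 8 genes (Lck has a pair of them), TGTGGT was in 4, AGGAAG in 6, TGACGT in 2 and TATAAA in 1. The Cd3d and Cd3g windows and 1 of Lck overlap the span of their own gene, and these 3 windows hold 3 of the 6 with AGGAAG. Of all 33469 windows in the table, 14.5% held TGTGGT, 29.5% AGGAAG, 6.95% TGACGT and 12.9% TATAAA. These are matches of letters only.

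None of the 10 genes was called different after BBMP. To be tested, a gene needed a probe called well above background in every animal of 1 group or of both. This held for 8 of the 10, and each of the 8 was measured in all 6 animals. At limma's adjusted p of 0.05 over 28112 features 0 of the 8 passed, and 0.00711% of all features did. An unadjusted p under 0.05 was reached by 0 of the 8 and by 10.8% of all features. Of the 8, 4 were higher and 4 lower on average in BBMP livers, with a median log2 difference of -0.00 against -0.01 over all features. The groups overlapped for all 14 probes, while 17.8% of all features had groups that did not overlap. Adjusted p ran from 0.492 to 0.811. For all 8 tested genes the difference was smaller than the range among the 3 corn oil livers alone.

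**Figure D1:**
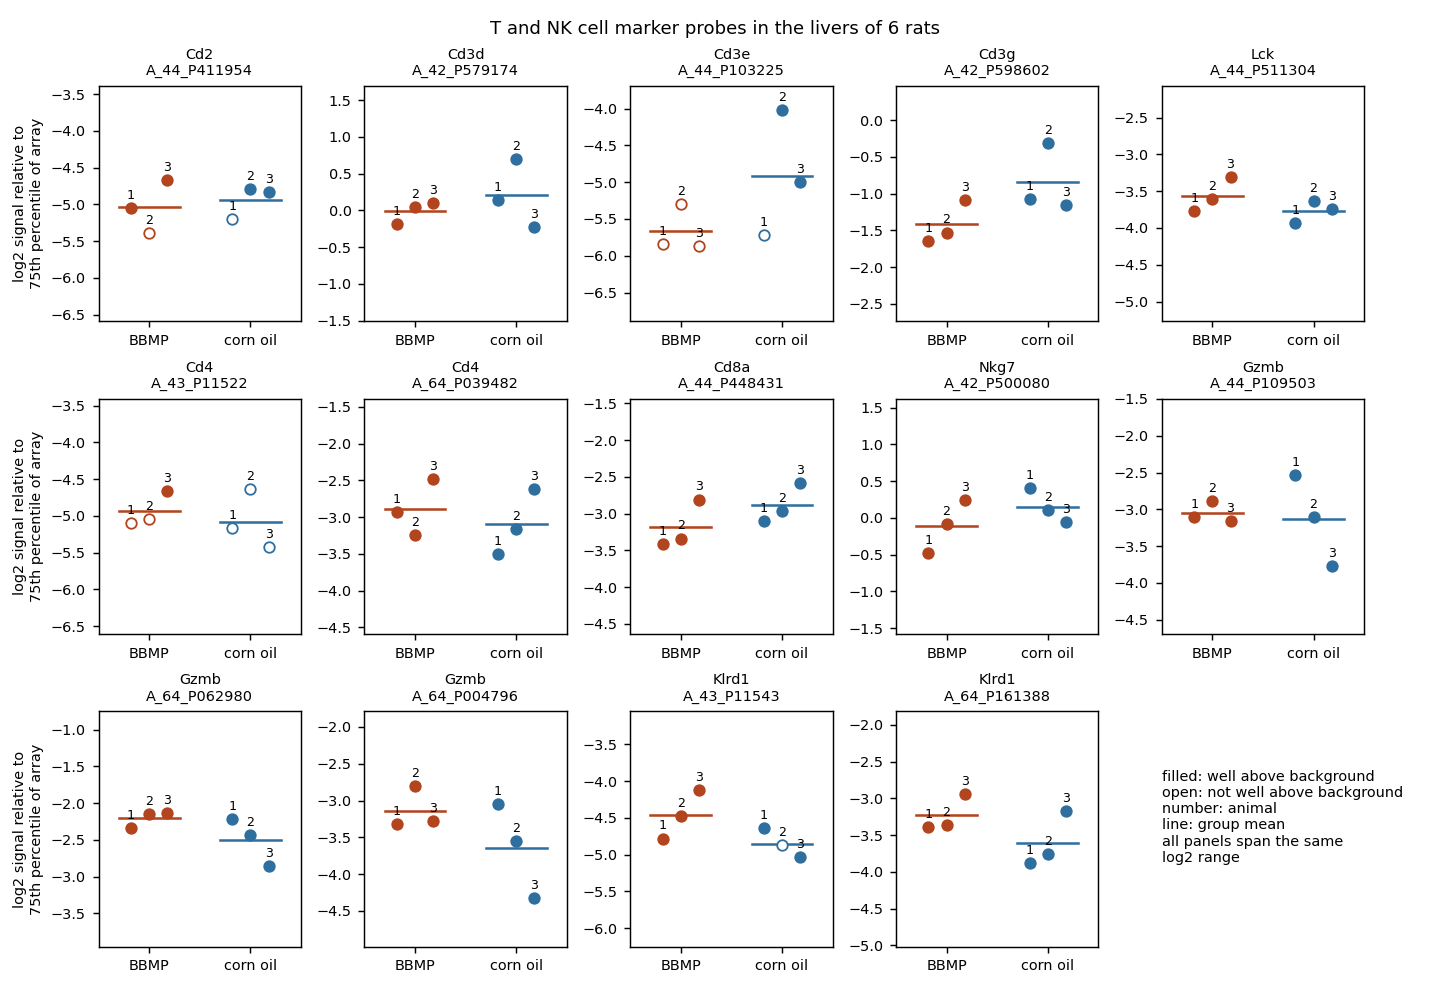
Signal of the 14 probes of the 10 genes in each animal, as log2 relative to the array's 75th percentile (vertical axis), BBMP livers left and corn oil livers right. Points are animals, numbered, filled where the probe was well above background, and lines are group means; the groups overlap in every panel, and corn oil 2 is the highest animal for Cd3d, Cd3e and Cd3g.

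The 3 CD3 genes, which encode the signalling chains of the T cell receptor and are neighbours on rat chromosome 8, had lower group means in BBMP livers, and all 3 peaked in the same corn oil animal. Cd3g (probe A_42_P598602) was at -1.64, -1.53 and -1.08 in BBMP 1 to 3, against -1.08, -0.32 and -1.15 in corn oil 1 to 3. Corn oil 2 stood above the other 5 livers, and BBMP 3 overlapped the corn oil animals. The log2 difference was -0.57 ± 0.26 (SE), with a 95% interval of -1.21 to 0.07 (limma adjusted p = 0.492). This was the largest difference among the 8 tested genes, and without corn oil 2 it was -0.30.

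Cd3d (probe A_42_P579174) was at -0.19, 0.05 and 0.10 in BBMP livers, against 0.14, 0.71 and -0.23 in corn oil livers. Corn oil animals held both the highest and the lowest of the 6 values. The log2 difference was -0.22 ± 0.24 (SE; limma adjusted p = 0.764), and without corn oil 2 it was 0.04, on the other side of 0.

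Cd3e (probe A_44_P103225) gave a weak signal that was well above background in 0 of 3 BBMP livers and 2 of 3 corn oil livers, so it was not tested. Its processed signal was 9.20, 12.4 and 9.79 intensity units in BBMP livers, against 8.54, 28.2 and 16.4 in corn oil livers, where the dimmest probe called well above background had 12.4 to 15.4 units depending on the array. On the log2 scale this was -5.83, -5.30 and -5.86 in BBMP livers, against -5.72, -4.02 and -5.00 in corn oil livers. With the BBMP values raised to that limit of measurement, the BBMP mean was 1.30-fold lower than the corn oil mean. This is not a strict bound: 1 of the 3 corn oil animals was itself below the limit, which was set by other probes. The measured difference was -0.75. Without corn oil 2 it was -0.31, and the corn oil mean no longer lay above the raised BBMP mean. In whole liver, fewer T cells and less RNA per T cell cannot be told apart for any of these genes.

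Lck, the kinase that phosphorylates the CD3 chains, did not follow them from animal to animal. It was at -3.77, -3.61 and -3.31 in BBMP livers, against -3.93, -3.64 and -3.74 in corn oil livers (probe A_44_P511304). BBMP 3 was the highest animal and corn oil 1 the lowest. Its difference between the groups was 0.21 ± 0.15 (log2, SE; limma adjusted p = 0.643). The 95% interval ran from -0.16 to 0.57.

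Cd2, an adhesion receptor of T and NK cells, lay at the limit of measurement. Its probe (A_44_P411954) was well above background in 2 of 3 BBMP livers and 2 of 3 corn oil livers and was not tested. The values were -5.05, -5.39 and -4.66 in BBMP livers, against -5.20, -4.79 and -4.83 in corn oil livers. The group means differed by -0.09, less than the spread within either group, and without BBMP 2 the difference was 0.08.

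The coreceptors had group means on opposite sides. Cd8a (probe A_44_P448431), the chain that marks cytotoxic T cells and, in rats, also many NK cells, was at -3.41, -3.34 and -2.81 in BBMP livers, against -3.11, -2.97 and -2.58 in corn oil livers. Each group spanned about as much as the other, and BBMP 3 lay within the corn oil range. This gave a log2 difference of -0.30 ± 0.21 (SE; limma adjusted p = 0.630).

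Cd4 (brighter probe A_64_P039482) was at -2.92, -3.25 and -2.48 in BBMP livers, against -3.50, -3.16 and -2.61 in corn oil livers. The highest animal was BBMP 3 and the lowest corn oil 1. Between the group means lay a difference of 0.21 ± 0.28 (log2, SE; limma adjusted p = 0.811). The other Cd4 probe, A_43_P11522, was well above background in 1 of 3 BBMP livers and 0 of 3 corn oil livers. It placed the animals in another order, with corn oil 2 highest, and its group means differed by 0.15, higher in BBMP livers. That direction rested on single arrays: the measured difference was -0.03 without corn oil 3 and 0.01 without BBMP 3. No lower bound on the fold is given, because most values of this probe were not well above background.

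Since rat macrophages carry Cd4, the 17 tested macrophage and Kupffer cell markers are given beside it. Their mean deviation from each gene's 6-animal mean was 0.21, -0.29 and 0.37 in BBMP livers, against -0.34, -0.23 and 0.28 in corn oil livers. This placed the 6 animals in the same order as the brighter Cd4 probe, which was noticed after the values were seen. Of the 17 markers, 13 were higher and 4 lower on average after BBMP, while 52.5% of all features were lower. None passed limma's adjusted p of 0.05, and 0 had an unadjusted p under 0.05, which 10.8% of all features had. The part of macrophages in the Cd4 signal was not tested.

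**Figure D2:**
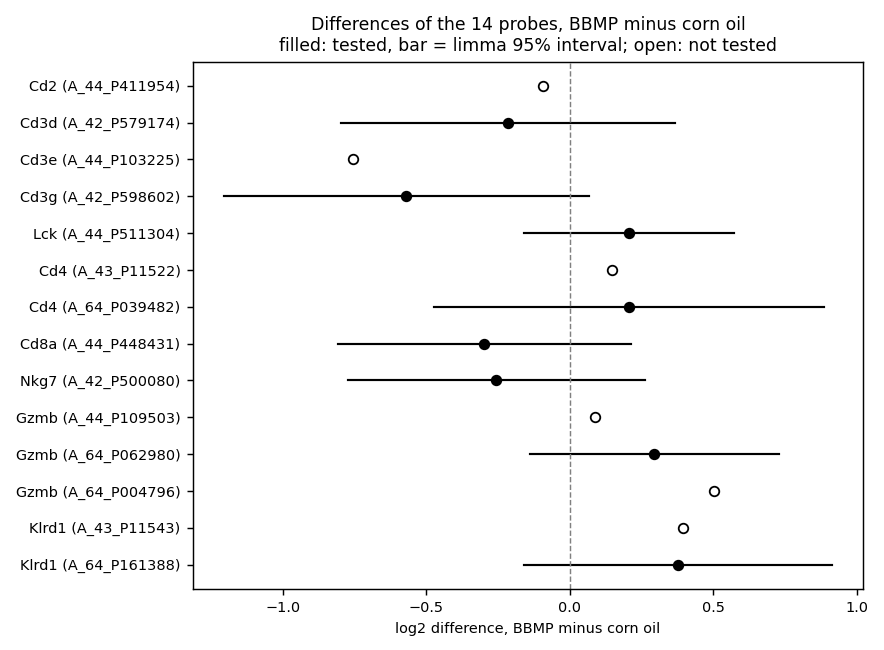
Log2 difference between BBMP and corn oil livers (horizontal axis) for each of the 14 probes. Filled points were tested and carry the limma 95% interval, open points were not, being dim or a further probe of the same gene; all 8 intervals include 0, and the Cd3g interval is the one that reaches below -1.

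The genes of cytotoxic cells were split as well. Klrd1, which encodes CD94, a subunit of the inhibitory and activating NKG2 receptors of NK cells, had the highest positive difference among the 8 tested probes. Its brighter probe (A_64_P161388) was at -3.39, -3.36 and -2.94 in BBMP livers, against -3.88, -3.76 and -3.18 in corn oil livers. Corn oil 3 lay among the BBMP animals, and the other corn oil animals lay below all of them. The log2 difference was 0.38 ± 0.22 (SE), with a 95% interval of -0.16 to 0.91 (limma adjusted p = 0.569). The dimmer probe, A_43_P11543, was at -4.78, -4.47 and -4.12 in BBMP livers, against -4.64, -4.87 and -5.04 in corn oil livers. Its mean difference was 0.39, and corn oil 3, the second highest animal on the brighter probe, was the lowest on this one.

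Gzmb, the granule protease granzyme B, was read by 3 probes that were well above background on all 6 arrays. The brightest (A_64_P062980) was at -2.34, -2.15 and -2.13 in BBMP livers, against -2.21, -2.43 and -2.86 in corn oil livers. Its log2 difference was 0.29 ± 0.18 (SE; limma adjusted p = 0.579). The other probes gave 0.09 (A_44_P109503) and 0.50 (A_64_P004796). Corn oil 1 was the highest and corn oil 3 the lowest corn oil animal on all 3 probes, and corn oil 3 was the lowest of all 6 animals. Granzymes are a family of close paralogs, so a probe may also bind transcripts of a relative.

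Nkg7, a membrane protein of cytotoxic granules, was at -0.48, -0.08 and 0.25 in BBMP livers, against 0.41, 0.10 and -0.06 in corn oil livers (probe A_42_P500080). Corn oil 1 was the highest and BBMP 1 the lowest animal. The log2 difference was -0.26 ± 0.21 (SE; limma adjusted p = 0.688).

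The precision of these comparisons can be read from the intervals. The standard errors of the 8 tested genes ran from 0.15 to 0.28 on the log2 scale, all above the median of 0.14 over all features. For 7 of the 8, the 95% interval lay within a 2-fold change in either direction. The interval for Cd3g reached down to 0.433 of the corn oil level and up to 1.05 times that level. These intervals do not show that the genes were unaffected.

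**Figure D3:**
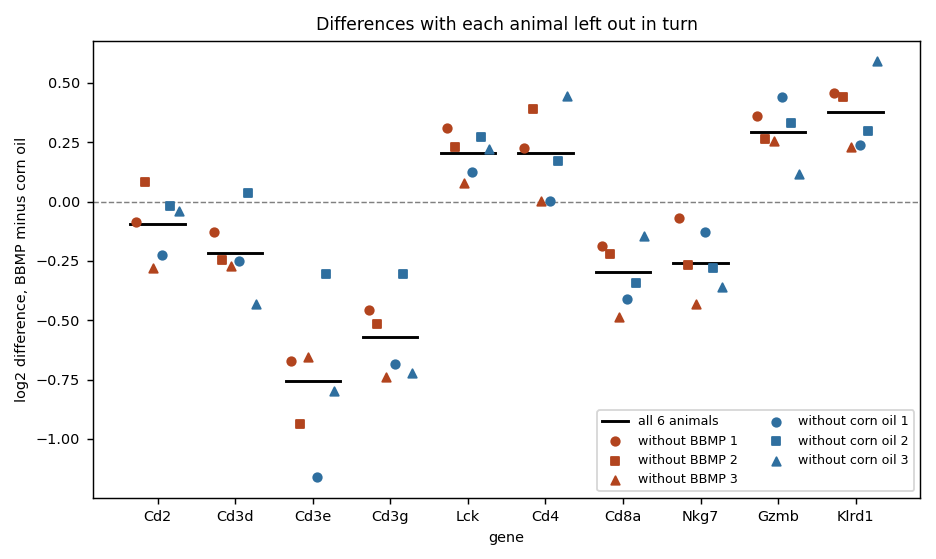
Log2 difference between BBMP and corn oil livers (vertical axis) for the brightest probe of each gene with all 6 animals (line) and with each animal left out in turn (symbols). Leaving out corn oil 2 brings Cd3g to -0.30, Cd3e to -0.31 and Cd3d to 0.04.

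The highest and lowest animals differed from gene to gene. On the brightest probe of each gene, BBMP 3 was the highest animal for 5 of the 10 genes (Cd2, Lck, Cd4, Gzmb and Klrd1) and corn oil 2 for the 3 CD3 genes. BBMP 1 was the lowest for 3 genes (Cd3g, Cd8a and Nkg7), and corn oil 1 also for 3 (Lck, Cd4 and Klrd1). BBMP 3 was also the highest animal for genes shared by leukocytes, with a mean deviation of 0.37 against -0.14 and -0.32 in the other BBMP livers and -0.12, 0.02 and 0.19 in corn oil livers. With an animal left out, differences of the tested genes moved between 0.08 and 0.31 for Lck, 0.00 and 0.44 for Cd4, -0.49 and -0.15 for Cd8a, -0.43 and -0.07 for Nkg7, 0.11 and 0.44 for Gzmb and 0.23 and 0.59 for Klrd1. The low end came without BBMP 3 for Lck, Cd8a, Nkg7 and Klrd1, without corn oil 1 for Cd4 and without corn oil 3 for Gzmb. The high end came without BBMP 1 for Lck and Nkg7, without corn oil 1 for Gzmb and without corn oil 3 for Cd4, Cd8a and Klrd1. No tested gene passed the threshold in any of these fits.

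**Figure D4:**
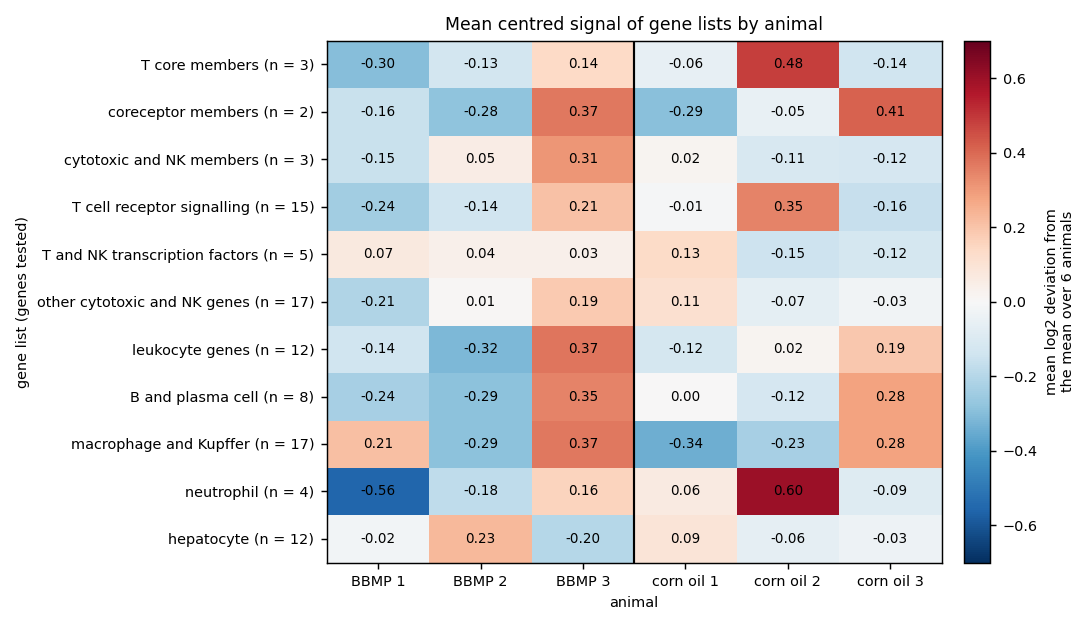
Mean log2 deviation of the tested genes of each list from their mean over the 6 animals (colour and printed value), by animal, BBMP livers left of the line and corn oil livers right. The T core members and the T cell receptor signalling genes are highest in corn oil 2, at 0.48 and 0.35, while leukocyte, B cell and macrophage genes are highest in BBMP 3.

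The wider T cell receptor pathway was followed through 25 further genes of receptor signalling and the T cell surface, of which 22 had a probe and 15 were tested. Of these, 6 were higher and 9 lower after BBMP, with a median log2 difference of -0.30 against -0.01 over all features. Icos, among the 9 lower, met the filter only in corn oil livers and was well above background in 1 of 3 BBMP livers. A filter met in 1 group alone favours a lower value in the other, so its direction is no evidence. In limma 0 passed an adjusted p of 0.05 and 1 had an unadjusted p under 0.05, which 10.8% of all features had. Groups did not overlap for 1 of the 15, against 17.8% of all features. Without corn oil 2 the median was -0.06, and without BBMP 3, 2 genes were higher and 13 lower. Lat, the membrane adaptor below the receptor, was at -2.06, -2.21 and -2.16 in BBMP livers, against -1.92, -1.64 and -1.86 in corn oil livers, without overlap. Its log2 difference was -0.33 ± 0.11 (SE; limma adjusted p = 0.417). The kinase Zap70, which binds phosphorylated CD3 chains, differed by -0.33 ± 0.18 (adjusted p = 0.537). Cd6, a receptor of the T cell surface, went the other way at 1.00 ± 0.50 (adjusted p = 0.515). Cd6 had 4 probes, and these values are from the brightest that met the filter. Its other probes are not reported here. BBMP 2 was high for Cd6 at 0.51, and the remaining BBMP livers were at -0.83 and -0.86. The corn oil livers were at -0.55, -1.74 and -1.89. Without BBMP 2 the Cd6 difference was 0.55, and with 1 animal left out that of Zap70 came as near 0 as -0.22.

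Averaged over genes, the signalling list and the 3 tested T core members (Cd3d, Cd3g and Lck) placed the 6 animals in the same order. None of these 3 members had that order by itself, and the match was noticed after the values were seen. The mean deviation of the signalling genes was -0.24, -0.14 and 0.21 in BBMP livers, against -0.01, 0.35 and -0.16 in corn oil livers. That of the T core members was -0.30, -0.13 and 0.14 in BBMP livers, against -0.06, 0.48 and -0.14 in corn oil livers. Neutrophil markers were highest in the same animal: 4 of 9 with a probe were tested, with mean deviations of -0.56, -0.18 and 0.16 in BBMP livers, against 0.06, 0.60 and -0.09 in corn oil livers. S100a8 and S100a9, calcium-binding proteins abundant in neutrophils, differed by -0.69 ± 0.45 and -0.65 ± 0.44 (SE; limma adjusted p = 0.601 and 0.614), and corn oil 2 was the highest animal for both. Without it the differences were -0.22 for S100a8 and -0.18 for S100a9. Corn oil 2 was not the highest for Camp and Fcnb, the other tested neutrophil markers. Elane, Cxcr2, Csf3r, Ngp and Mmp8 were too dim to be tested. The part of neutrophils in corn oil 2's values was not tested.

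Of 29 further genes of cytotoxic granules and NK receptors, 27 had a probe and 17 were tested. Of the tested genes 7 were higher and 10 lower after BBMP, with a median log2 difference of -0.08. None passed limma's adjusted p of 0.05, and 0 had an unadjusted p under 0.05, which 10.8% of all features had. Without BBMP 1, 13 were higher and 4 lower (median 0.05), and without corn oil 1, 11 were higher and 6 lower (median 0.05). Klrc3, a partner chain of Klrd1 in the CD94 receptors, differed by 0.48 ± 0.35 (SE; limma adjusted p = 0.643). It was at -2.68, -2.23 and -1.75 in BBMP livers, against -3.18, -2.89 and -2.04 in corn oil livers, which is the order of the animals on the brighter Klrd1 probe. Klrc genes are close copies of each other and their probes may share targets. Xcl1, a chemokine of NK and CD8 T cells, differed by -0.46 ± 0.37 (adjusted p = 0.675), the granzyme Gzmc by 0.25 ± 0.21 (adjusted p = 0.692) and the NK receptor Klrb1a by 0.14 ± 0.11 (adjusted p = 0.693). With 1 animal left out these came as near 0 as 0.24 for Klrc3, -0.18 for Xcl1, 0.097 for Gzmc and 0.046 for Klrb1a.

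Several genes of the cytotoxic and NK list were too dim to be called on any array. The brightest probe of 9 of the 27 genes was well above background on 0 of the 6 arrays, among them Ncr1, the activating receptor NKp46, and the cytokine Ifng. How the signal of the Klrd1, Nkg7 and Gzmb probes divides between NK cells and cytotoxic T cells was not tested.

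**Figure D5:**
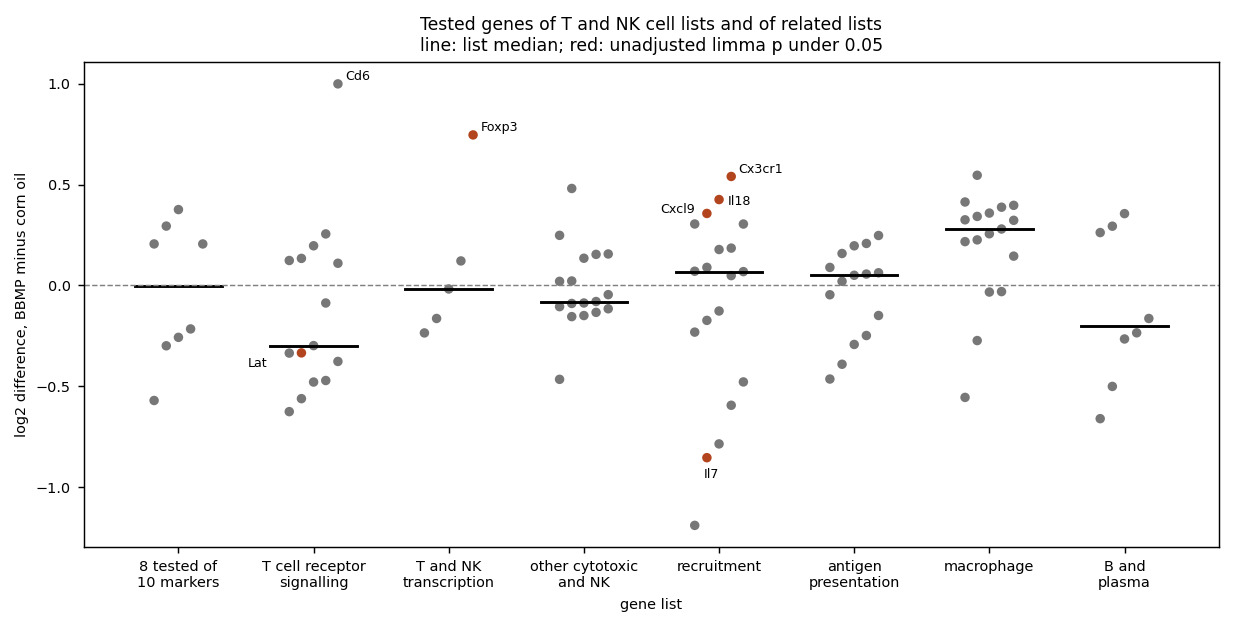
Log2 difference between BBMP and corn oil livers (vertical axis) of each tested gene in 8 lists, with the list median as a line and genes at an unadjusted limma p under 0.05 in red. The 8 tested markers spread to both sides of 0 between -0.57 and 0.38, and the receptor signalling genes have a median of -0.30.

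Among 12 transcription factors of T and NK cells, 8 had a probe and 5 were tested, 2 higher and 3 lower. None passed limma's adjusted p of 0.05, and 1 had an unadjusted p under 0.05, which 10.8% of all features had. Groups did not overlap for 1 of the 5, against 17.8% of all features. Without BBMP 1, BBMP 3, corn oil 1 or corn oil 2 the split was 3 higher and 2 lower. Tbx21 changed side in these fits, while the other tested factors kept theirs with any 1 animal left out. Its log2 difference, the list median, was -0.02 ± 0.13 (SE; limma adjusted p = 0.972). The Tbx21 probe was at 7.26, 7.49 and 7.19 in BBMP livers, against 7.41, 7.43 and 7.16 in corn oil livers. Probes of the other tested factors were dimmer, below 0 on every array. Whether so bright a probe reads Tbx21 transcripts was not tested. The gene with the low unadjusted p was Foxp3, which defines regulatory T cells, at -3.58, -3.30 and -3.38 in BBMP livers, against -3.86, -4.60 and -4.05 in corn oil livers, without overlap. Its log2 difference was 0.75 ± 0.21 (SE; limma adjusted p = 0.401). Runx3, Ikzf1 and Ets1 differed by -0.16 ± 0.13, 0.12 ± 0.10 and -0.24 ± 0.27 (adjusted p = 0.676, 0.677 and 0.765). With 1 animal left out they came as near 0 as -0.077 for Runx3, 0.066 for Ikzf1 and -0.015 for Ets1.

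Of 25 chemokines, cytokines and receptors that guide or keep T and NK cells, 19 were tested, 11 higher and 8 lower, or 8 higher and 11 lower without BBMP 3 and 9 higher and 10 lower without corn oil 2. In limma 0 passed an adjusted p of 0.05 and 4 had an unadjusted p under 0.05, which 10.8% of all features had. Groups did not overlap for 3 of the 19, against 17.8% of all features. Il12b and Il7, both among the 8 lower, met the filter only in corn oil livers, which favours a lower value in BBMP livers. Il12b was well above background in 1 of 3 BBMP livers. Il7 is also among the 4 with a low unadjusted p and the 3 without overlap. Il7, a survival factor for T cells, was at -5.23, -4.89 and -4.61 in BBMP livers, against -4.00, -4.23 and -3.95 in corn oil livers, without overlap, and was well above background in 2 of 3 BBMP livers. Its log2 difference was -0.85 ± 0.18 (SE; limma adjusted p = 0.350). Cxcl9, an interferon-induced chemokine that attracts activated T cells, differed by 0.36 ± 0.11 (adjusted p = 0.408), and Il18, a cytokine that stimulates NK cells, by 0.43 ± 0.16 (adjusted p = 0.439), both without overlap. The chemokine receptor Cx3cr1, carried by monocytes and cytotoxic lymphocytes, differed by 0.54 ± 0.22 (adjusted p = 0.462), or 0.33 without BBMP 3.

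Genes that present antigen to T cells numbered 15 tested of 18, 9 higher and 6 lower. None passed limma's adjusted p of 0.05, and 0 had an unadjusted p under 0.05, which 10.8% of all features had. The split turned to 4 higher and 11 lower without BBMP 3, and to 5 higher and 10 lower without corn oil 2. The immunoproteasome subunits Psmb9 and Psmb8 differed by -0.39 ± 0.18 and -0.46 ± 0.27 (SE; adjusted p = 0.499 and 0.558), the peptide transporter Tap2 by -0.29 ± 0.20 (adjusted p = 0.623) and Ciita, the regulator of MHC class II genes, by -0.25 ± 0.22 (adjusted p = 0.706). Both immunoproteasome genes were highest in corn oil 2, as the CD3 genes were, and without it Psmb9 differed by -0.25 and Psmb8 by -0.17. Tap2 differed by -0.066 without BBMP 2, and Ciita by -0.089 without BBMP 1.

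Markers of other leukocytes also showed no member past limma's adjusted p of 0.05. Genes shared by leukocytes were 6 higher and 6 lower of 12 tested, or 2 higher and 10 lower without BBMP 3 and 8 higher and 4 lower without corn oil 3. B and plasma cell markers were 3 higher and 5 lower of 8 tested, or 4 higher and 4 lower without BBMP 2. Blk, among the 3 higher, met the filter only in BBMP livers and was well above background in 2 of 3 corn oil livers. Dendritic cell markers were 2 higher and 3 lower of 5 tested, a split that turned to 3 and 2 without BBMP 1 or BBMP 2 and to 4 and 1 without corn oil 1. In these 3 lists 0 genes had a limma unadjusted p under 0.05, which 10.8% of all features had. Mast cell, platelet and red cell markers were 3 higher and 4 lower of 7 tested, also with 0 at an unadjusted p under 0.05. That split turned to 5 higher and 2 lower without BBMP 1, and to 4 and 3 without corn oil 2 or corn oil 3.

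The other cell types of the liver were counted in the same way, with 0 genes past limma's adjusted p of 0.05. Stellate cell markers were 3 higher and 7 lower of 10 tested, with 4 at an unadjusted p under 0.05, all lower. Of all features, 10.8% had a limma unadjusted p under 0.05. Endothelial markers were 5 higher and 1 lower of 6 tested, with 0 at an unadjusted p under 0.05. Cholangiocyte markers were 2 higher and 4 lower of 6 tested (3 and 3 without BBMP 3 or corn oil 3), with 1 at an unadjusted p under 0.05. Spp1, among the 4 lower, met the filter only in corn oil livers and was well above background in 2 of 3 BBMP livers. Hepatocyte markers were 5 higher and 7 lower of 12 tested, with 2 at an unadjusted p under 0.05. The part of these cells in the T and NK cell values was not tested.

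The pattern over animals was also compared with that of all other genes. The mean centred signal of Cd3d, Cd3g and Lck was set against 10700 named genes that were well above background on all 6 arrays. The 5 genes with the highest Pearson correlation over the 6 animals were Grhpr (0.99), Dnmt1 (0.98), Nsg2 (0.98), Rasal3 (0.98) and Cd27 (0.97). With 6 animals and 10700 genes, values of this size are a description only. Cd27, a costimulatory receptor of T cells, is also a gene of the signalling list, at -3.40, -3.34 and -2.85 in BBMP livers, against -3.04, -1.87 and -3.24 in corn oil livers. All 5 genes were highest in corn oil 2, and their log2 differences between the groups ran from -0.48 to -0.06 (limma adjusted p from 0.662 to 0.848). Both traits come with the selection: the pattern they were matched to peaked in corn oil 2 and was lower on average in BBMP livers.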

How the data were processed

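Per the labels' protocols, 0.2 µg of liver RNA per animal was labelled with Cy3 and hybridised to a 1-colour array. Per the file headers, the arrays (Agilent design 035170, annotation build rn4) passed through Feature Extraction 10.7.1.1; the submitters' processing notes name version 10.7. The deposited scanner files hold linear intensity, not normalised between arrays, and 0 and 1 flags (other values) made by the same software, per the file headers. The authors' value table holds linear intensity: each column was the scanner signal divided by 1 constant (449.4 to 567.9) near that array's 75th percentile (450.1 to 570.4), its columns had medians between 0.0971 and 0.1005, and probes were not centred; the reason for that step is not given in the sources used here.

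Control spots (1319 of 62976) and 84 spike-in probes were left out. Probes were named through unversioned accessions in the RefSeq gene table of GRCr8, which named 27460 of 61573 probes (44.6%). The log2 signal minus each array's log2 75th percentile was fitted with limma 3.58.1 in R 4.3.3 (lmFit, eBayes, no covariate, two-sided, Benjamini-Hochberg over 28112 features). Testing required a call of well above background in each animal of 1 group or both, and the brightest passing probe stood for its gene. Outlier spots, at most 21 per array, were left out; none was on a member probe. Other steps ran in pandas 2.3.3 and numpy 2.4.6 under Python 3.11.15.

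Besides the 10 members, 15 gene lists were counted. Named genes are the members and the 5 genes most like the T core. Each T and NK cell, recruitment or antigen presentation list added up to 4 genes with the smallest p, and other lists up to 2. Camp, Fcnb, Elane, Cxcr2, Csf3r, Ngp, Mmp8, Ncr1, Ifng, Tbx21, Icos, Il12b, Blk and Spp1 are further names chosen after their values were seen. Some genes that the rule names are not reported here. The members and lists were chosen with earlier results of these data known. The fit was tested on simulated data. Alternatives covered background correction, scaling, filter, probe summary, moderation, the authors' table, the replicate number as a block and leaving out each array. Normexp used the median spot signal.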

Additional observations from a re-analysis of the deposited data

How the results depend on the processing

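All alternatives were planned. The 8 tested members stayed at 0 past limma's adjusted p of 0.05 under every alternative, as did the 15 other lists, with members' adjusted p from 0.408 to 0.999. At an unadjusted p under 0.05 there were 2 members with normexp (Cd3g and Cd8a) and 2 with the replicate block (Cd8a and Klrd1). There were also 2 without BBMP 3 (Cd3g and Cd8a), 1 without corn oil 1 (Gzmb) and 1 without corn oil 3 (Klrd1). Of the 28112 features tested in each of these fits, 3252, 3235, 2755, 3216 and 3002 had such a p, in the same order. Of 150 recomputed member differences, 2 changed side among tested genes: the log2 difference of Cd4, BBMP minus corn oil, was -0.061 with normexp background correction, and that of Cd3d was 0.036 without corn oil 2, within a range of -0.43 to 0.036 with 1 array left out. A further Gzmb probe, A_44_P109503, gave -0.03 with normexp. The untested Cd2 also crossed 0 without BBMP 2, at 0.08. Without a filter, Cd2 and Cd3e had limma adjusted p of 0.926 and 0.775. Over all features, 2 passed; the number was 0 with normexp, 0 with the filter on all 6 arrays (fewer features tested), 0 with the replicate block and 1 without a filter (more features tested), and 0 to 4 with 1 array left out, 0 without corn oil 3 and 4 without corn oil 2. In the settings with 0, features at an unadjusted p under 0.05 numbered 3252 (normexp), 2835 (all 6 arrays), 3235 (replicate block) and 3002 (without corn oil 3). Otherwise the cause was not tested. Deviations of animals with the same replicate number correlated at 0.0894, 0.0159 and 0.0719, and nothing else pairs them. Scaling moved the median difference of all features by under 0.1. Signal over background limits Cd2, Cd3e, the dimmer Cd4 and Klrd1 probes, Il7, Icos, Il12b, Blk and Spp1.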
